A study of Homo sapiens with 6 samples.

Results

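The miR-548 family is a large set of human microRNAs (miRNAs) that derive from a transposable element, and its level was followed here in breast cancer cells. The members were the rows of the deposited miRNA table whose name is hsa-miR-548 followed by a letter, and these were 51 of 1582 rows. Small RNA was sequenced from MDA-MB-231, a human triple-negative breast cancer cell line with a mesenchymal form. The control group was 3 libraries of non-transfected MDA-MB-231 cells. The RARαS77A group was 3 libraries of MDA-MB-231 cells transfected with RARαS77A, a retinoic acid receptor alpha in which a serine that is normally phosphorylated is replaced by alanine. The series description calls the construct lentiviral. The control cells received no vector, so the delivery of the construct and the mutant receptor cannot be told apart, and mRNA was not measured, so the level of the receptor is not checked by these data. Nothing read here states that the replicates were separate cultures, and p-values then measure only the spread between these libraries, which may be technical.

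Members of the miR-548 family come from Made1, a short non-coding relative of a mariner DNA transposon that spread through primate genomes. Made1 consists of terminal inverted repeats with little between them, so its transcripts fold back into near-perfect hairpins, which the miRNA processing enzymes Drosha and Dicer can cut into mature miRNAs. Many copies lie in introns of genes. As the arms of the hairpin are inverted repeats of each other, members from one arm resemble the reverse complement of members from the other. A mature miRNA recognises target mRNAs mainly through its seed, the bases 2 to 8 counted from the 5′ end.

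Mature sequences were found in RefSeq (GRCh38.p14) for 35 of the 51 members and for 12 of the 16 members that had enough counts to be tested. These 12 are shown first because the comparison of the groups rests on them, with the seed in capitals.
miR-548o-3p: cCAAAACUgcaguuacuuuugc
miR-548ah-3p: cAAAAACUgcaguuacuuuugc
miR-548p: uAGCAAAAacugcaguuacuuu
miR-548u: cAAAGACUgcaauuacuuuugcg
miR-548bc: aAAAACUGugauuacuuuugc
miR-548ar-3p: uAAAACUGcaguuauuuuugc
miR-548f-5p: uGCAAAAGuaaucacaguuuuu
miR-548k: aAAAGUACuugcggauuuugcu
miR-548l: aAAAGUAUuugcggguuuuguc
miR-548n: cAAAAGUAauuguggauuuugu
miR-548j-5p: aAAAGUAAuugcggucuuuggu
miR-548w: aAAAGUAAcugcgguuuuugccu
No entry was found for the tested members miR-548a-3p, miR-548d-5p, miR-548e-3p and miR-548t-3p. The 35 sequences were 19 to 23 bases long and held 22 distinct seeds, of which 6 were carried by more than a single member. The median content of A and U was 63.6%, against 50% over the 1342 rows of the table with a RefSeq sequence. The first 6 sequences above end near UACUUU or a close variant of it, and the last 6 hold AAAGUA near their 5′ end, which is its reverse complement.

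The tested members with RefSeq coordinates came from 13 loci. In GENCODE 29 (GRCh38) all 13 lay in an intron of a protein-coding gene and none in an exon, with 11 on the strand of the host gene and 2 on the opposite strand. miR-548o-3p has 2 loci with the same mature sequence. These are chr7:102405748-102405769 on the minus strand, opposite to PRKRIP1, and chr20:38516607-38516628 on the plus strand, in RALGAPB, which encodes a subunit of a GTPase-activating complex for Ral proteins. The counts do not tell these loci apart. miR-548k lies at chr11:70283986-70284007 (plus strand) in PPFIA1, which encodes a liprin that acts at focal adhesions. miR-548ah-3p lies at chr4:76575597-76575618 (plus strand) in SHROOM3, an actin regulator, and miR-548p at chr5:100816498-100816519 (minus strand) in ST8SIA4, a polysialyltransferase. miR-548f-5p lies at chr10:54607926-54607947 (minus strand) in PCDH15, a protocadherin, and miR-548bc at chr17:39297457-39297477 (plus strand), opposite to FBXL20, an F-box protein.

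The libraries held 9019266 to 11338580 counts, and 3 counts, the limit that a count of 0 allows, corresponded to 0.265 to 0.333 CPM, a count divided by the library's total and put on a common scale. Levels below are CPM in which the totals were first multiplied by edgeR's TMM factors, which were 1.15 to 1.30 in control and 0.811 to 0.830 in RARαS77A libraries. Of the markers fixed for the cell line, all 5 abundant miRNAs ranked between 1 and 29 in the libraries. The 3 epithelial miRNAs listed as low, miR-200c-3p, miR-141-3p and miR-205-5p, ranked between 175 and 942. Of these, miR-200c-3p had 254 to 462 counts, and miR-205-5p had 90, 1 and 24 counts in control and 22, 21 and 10 in RARαS77A libraries. Of 15 markers of other cell types, all 15 had counts, and their sum was 114 to 412 CPM of total counts in control and 272 to 301 in RARαS77A libraries. The pluripotency miRNAs miR-302a-3p, miR-302b-3p, miR-302c-3p, miR-302d-3p and miR-367-3p summed to 0.185 and 0.0882 CPM in control replicates 1 and 2 but to 330 CPM in control replicate 3, against 216 to 223 CPM in RARαS77A libraries. Control replicate 3 thus stood with the RARαS77A libraries in these miRNAs. The other control libraries stood apart in further markers. The muscle miRNA miR-1-3p had 898 counts in control replicate 1 and 28 to 49 in the other libraries, and the endocrine miRNA miR-375-3p had 870 counts in control replicate 2 and 19 to 54 in the others. Where leaving out a library changed the call of a tested member, that fit is named below. The part of these markers in the results was not tested.

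Every one of the 51 members had at least 1 count in some library, but most were rare. Control libraries held counts for 41, 46 and 44 members, which is 80.4%, 90.2% and 86.3% of the family. RARαS77A libraries held counts for 33, 38 and 32 members, or 64.7%, 74.5% and 62.7%. The RARαS77A libraries thus lay below the control libraries, as they also did over the whole table, where 68.5% to 73.6% of rows were detected in control and 62.5% to 65.5% in RARαS77A libraries. With a limit of 10 counts, 16 to 18 members were detected in control and 13 to 15 in RARαS77A libraries. Across all libraries, 40 members reached 3 counts and 20 reached 10 counts in at least 1 library, while 25 were found in all 6 libraries and 4 in a single library.

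**Figure D1:**
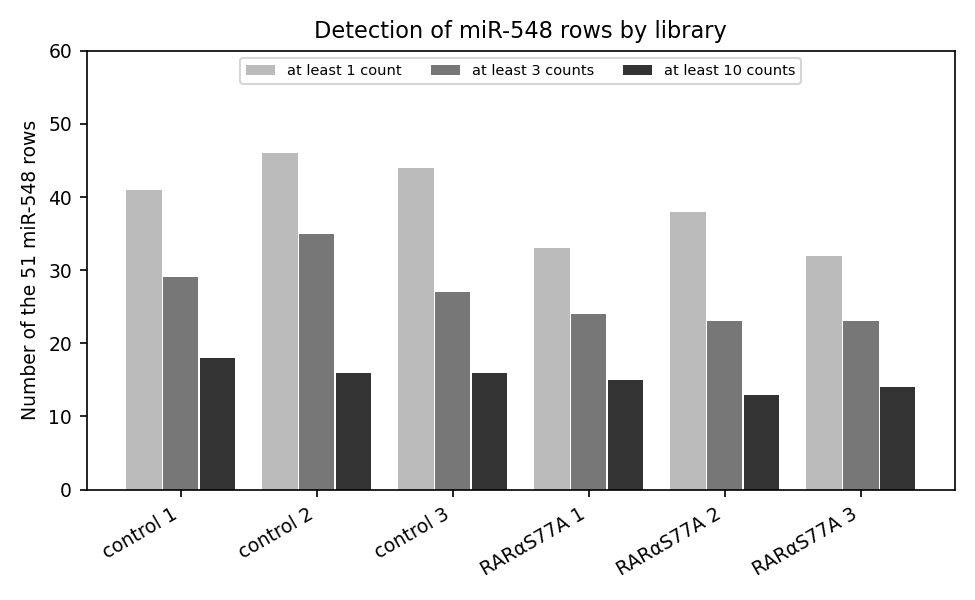
Number of miR-548 members, of 51, that reached at least 1, 3 and 10 counts in each library (vertical axis), with the libraries on the horizontal axis. At 1 count the control libraries reach 41 to 46 members and the RARαS77A libraries 32 to 38.

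The family made up a small part of each library, and a single member, miR-548o-3p, supplied a large share of it. The summed counts of the 51 members were 1163, 1206 and 923 in control and 1331, 1305 and 925 in RARαS77A libraries. Scaled by TMM, the sum was 86.5 ± 5.96 CPM in control and 145 ± 30.2 CPM in RARαS77A cells (SD, n = 3 each), a log2 ratio of 0.75 with no overlap of the groups. With total counts only, the log2 ratio of the sum was 0.17 and the groups overlapped. Without miR-548o-3p the sum was 51.6 ± 5.17 CPM in control and 50.7 ± 5.34 CPM in RARαS77A cells, a log2 ratio of -0.026, and the groups overlapped. Without TMM factors, that is with total counts only, it was -0.60, and all RARαS77A libraries lay below all control libraries.

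The share of the family's counts held by miR-548o-3p does not depend on the scaling. It was 40.1%, 44.0% and 37.1% in the control libraries and 68.0%, 65.7% and 60% in the RARαS77A libraries. Each of the RARαS77A libraries lay above each of the control libraries, also in the 95% Wilson intervals, whose highest control bound was 46.8% and whose lowest RARαS77A bound was 56.8%. These intervals cover counting error only. The mean share was 40.4% ± 3.50 in control and 64.6% ± 4.11 in RARαS77A cells (SD, n = 3 each).

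**Figure D2:**
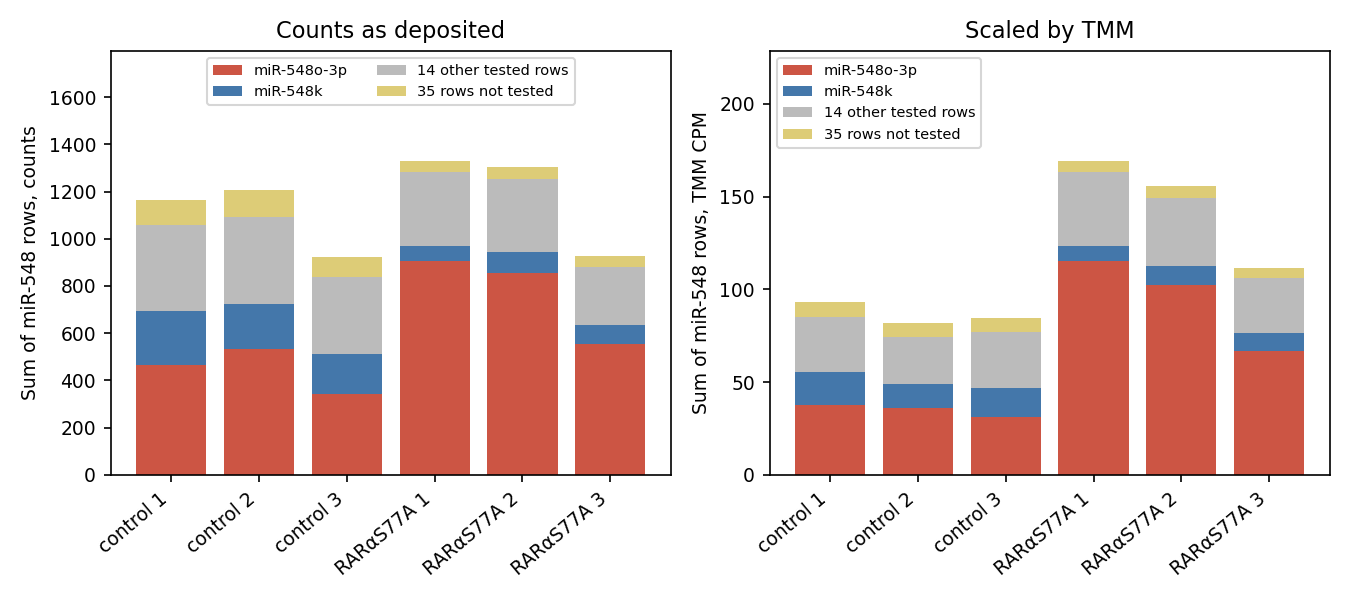
Summed miR-548 values per library (horizontal axis), as deposited counts on the left and as TMM-scaled CPM on the right, stacked by miR-548o-3p, miR-548k, the 14 other tested members and the 35 members not tested. The miR-548o-3p segment is taller in RARαS77A libraries in both panels, while the miR-548k segment is shorter.

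The 16 tested members were judged in edgeR's quasi-likelihood fit of the 506 miRNAs that passed its expression filter, with a Benjamini-Hochberg adjusted p of 0.05 as the limit. miR-548o-3p, miR-548ah-3p, miR-548p, miR-548bc and miR-548f-5p rose in RARαS77A cells, miR-548k fell, and 10 members did not pass the test. Over all tested miRNAs, 23.3% were called higher and 21.1% lower. The 5 of 16 higher members, of which miR-548bc and miR-548f-5p are a single measurement, are near that background, and the 1 lower member is below it. The groups did not overlap in 6 members with RARαS77A above and 2 with RARαS77A below, against 31.0% and 27.1% of all tested miRNAs. The median log2 fold change was -0.02 over the members and 0.06 over all tested miRNAs, and 8 members had a positive and 8 a negative value.

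**Figure D3:**
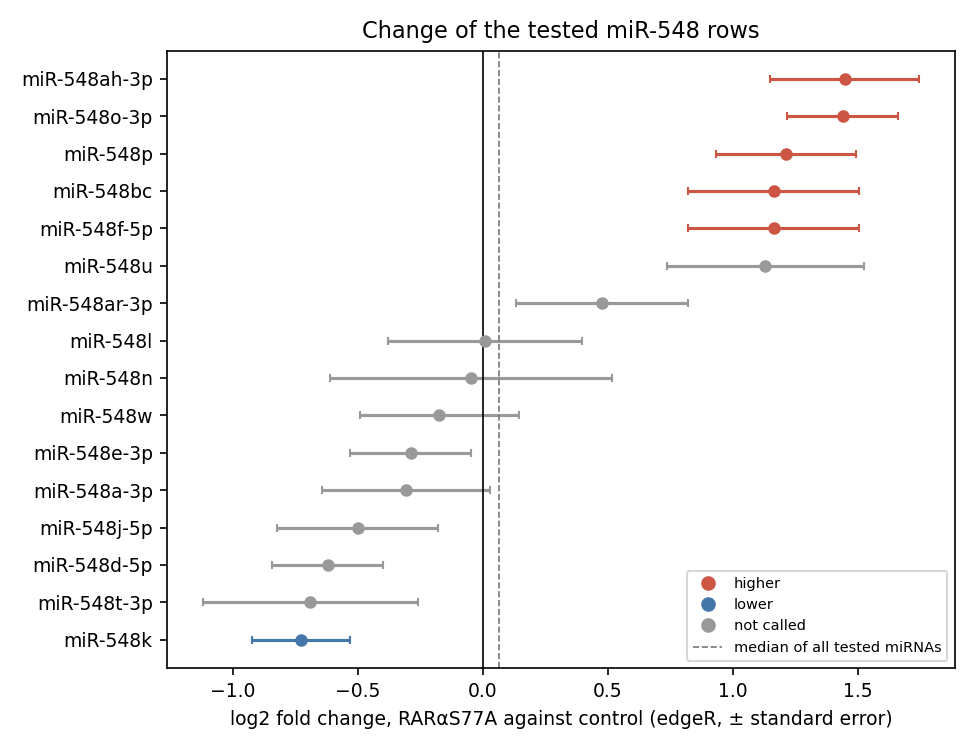
Log2 fold change of RARαS77A against control for the 16 tested miR-548 members (horizontal axis, edgeR, TMM), with error bars of 1 standard error and a dashed line at the median of all tested miRNAs. The values run from -0.73 in miR-548k to 1.45 in miR-548ah-3p.

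miR-548o-3p was the most abundant member in every library, with 466, 531 and 342 counts in control and 905, 857 and 555 counts in RARαS77A libraries. As TMM-scaled levels these were 37.4, 36.1 and 31.2 CPM in control and 115, 102 and 66.8 CPM in RARαS77A libraries. RARαS77A replicate 3 was the lowest of its group and still lay above all control libraries. Its level rose from 34.9 ± 3.23 to 94.7 ± 25.0 CPM (SD over 3 libraries), and its log2 fold change was 1.44 (SE 0.22, edgeR adjusted p = 0.00172). Its rank among all rows of the table moved from between 165 and 178 in control to between 117 and 147 in RARαS77A libraries. With total counts only, its log2 fold change was 0.86 (edgeR adjusted p = 0.0143), and without control replicate 3 it was 1.32 (edgeR adjusted p = 0.00163).

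miR-548ah-3p and miR-548p share a stretch of sequence with miR-548o-3p and changed by a similar amount at a much lower level. The core common to these 3 is AAAACUGCAGUUACUUU, which is 17 bases long and is shown in capitals in the 5 members that hold it.
miR-548o-3p: ccAAAACUGCAGUUACUUUugc
miR-548ah-3p: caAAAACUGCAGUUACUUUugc
miR-548p: uagcaAAAACUGCAGUUACUUU
miR-548av-3p: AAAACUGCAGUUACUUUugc
miR-548am-3p: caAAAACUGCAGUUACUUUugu
No other row with a RefSeq sequence held the core on either strand. In RefSeq it occurs in 5 of the 2370 mature names (0.211%), which are these same members. The seeds of miR-548o-3p, miR-548ah-3p, miR-548p and miR-548av-3p differ from each other, and miR-548am-3p has the seed of miR-548ah-3p. The counts of miR-548ah-3p were 16, 28 and 22 in control and 48, 41 and 27 in RARαS77A libraries, and its level rose from 1.73 ± 0.392 to 4.75 ± 1.43 CPM (log2 fold change 1.45, SE 0.30, edgeR adjusted p = 0.00627). The counts of miR-548p were 22, 31 and 27 in control and 49, 44 and 27 in RARαS77A libraries, and its level rose from 2.11 ± 0.351 to 4.91 ± 1.52 CPM (log2 fold change 1.21, SE 0.28, edgeR adjusted p = 0.0102). In both, the scaled groups did not overlap, while the counts of RARαS77A replicate 3 lay within the range of the control counts. With total counts only, miR-548p was not called (log2 fold change 0.63, edgeR adjusted p = 0.0956) and miR-548ah-3p was (0.86, edgeR adjusted p = 0.0491).

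The remaining carriers of the core were too rare to be tested. miR-548av-3p had 4, 4 and 8 counts in control and 11, 5 and 5 in RARαS77A libraries. miR-548am-3p had 6, 3 and 5 and then 3, 5 and 7 counts. Both rows overlapped between the groups. Relative to miR-548o-3p in the same library, miR-548ah-3p stood at 5.05% ± 1.51 in control and 4.98% ± 0.280 in RARαS77A cells, and miR-548p at 6.15% ± 1.61 and 5.14% ± 0.275 (SD, n = 3 each). miR-548k, which lacks the core, stood at 44.9% ± 7.76 of miR-548o-3p in control and 10.5% ± 3.39 in RARαS77A cells. miR-548u also lacks the core and stood at 6.30% ± 2.73 and 5.11% ± 1.28, so a similar ratio in both groups was not particular to the core. The core was taken from miR-548o-3p, miR-548ah-3p and miR-548p after they were called higher, so these ratios are a description.

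miR-548k was the second most abundant member in control cells and the only tested one that was called lower. It had 227, 191 and 171 counts in control and 66, 88 and 78 counts in RARαS77A libraries. All RARαS77A libraries lay below all control libraries in counts as well as in scaled levels. The level of miR-548k fell from 15.6 ± 2.61 to 9.42 ± 1.04 CPM (SD over 3 libraries), and its log2 fold change was -0.73 (SE 0.19, edgeR adjusted p = 0.0198). The call was lost with upper quartile scaling (-0.51, edgeR adjusted p = 0.0557) and with the replicate number as a block (-0.72, edgeR adjusted p = 0.0591). With total counts only, the log2 fold change was -1.29 (edgeR adjusted p = 0.00136).

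miR-548bc and miR-548f-5p had equal counts in all 6 libraries, so they are a single measurement under different names. The counts were 11, 12 and 10 in control and 17, 11 and 20 in RARαS77A libraries. The counts of RARαS77A replicate 2 lay within the range of the control libraries, and only after scaling did the groups not overlap, at 0.871 ± 0.05 and 1.96 ± 0.576 CPM (SD over 3 libraries). Its log2 fold change was 1.16 (SE 0.34, edgeR adjusted p = 0.0279). The call was lost in 9 alternatives, among them total counts only (0.59, edgeR adjusted p = 0.191) and each fit without control replicate 1, 2 or 3 or without RARαS77A replicate 1 or 3. Without control replicate 3 the log2 fold change was 1.15 (edgeR adjusted p = 0.0583).

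A second pair with equal counts, miR-548aq-3p and miR-548g-5p, had 4, 4 and 1 counts in control and 2, 1 and 3 in RARαS77A libraries. Both pairs consist of reverse complements, shown here with the complementary run in capitals, 21 bases in the first pair and 22 in the second.
miR-548bc: AAAAACUGUGAUUACUUUUGC
miR-548f-5p: uGCAAAAGUAAUCACAGUUUUU
miR-548aq-3p: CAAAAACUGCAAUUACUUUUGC
miR-548g-5p: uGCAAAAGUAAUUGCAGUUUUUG
The members of a pair have different precursors. miR-548aq-3p lies in an intron of IGF2BP2 at chr3:185767847-185767868 (minus strand), and miR-548g-5p at chr4:147344681-147344703 (minus strand) outside annotated genes. miR-548aj-5p and miR-548x-5p have the same mature sequence as miR-548g-5p, so its counts cannot be placed at this locus alone. The strand setting of the counting is not stated in what was read here, and the rows of a pair cannot be told apart by their counts. A further 2 pairs, miR-548ad-3p with miR-548aw and miR-548az-3p with miR-548c-3p, had a single count per row, which fell in the same library for both rows. These 4 members and 6 others also had the same counts as a row outside the family, with totals of at most 7 counts.

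The same arrangement was found outside the family. Among the 1342 rows with a RefSeq sequence, 16 pairs were reverse complements over the whole length of the shorter sequence, and the counts of 13 of them differed by at most 5% in every library, with 7 equal. Of these pairs, 14 lay outside the miR-548 family, and the median ratio of the smaller to the larger total there was 99.9%. Pairs that shared the whole shorter sequence in the same sense numbered 7, of which 2 differed by at most 5% in every library. The 2 such pairs in the family did not have equal counts.

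**Figure D4:**
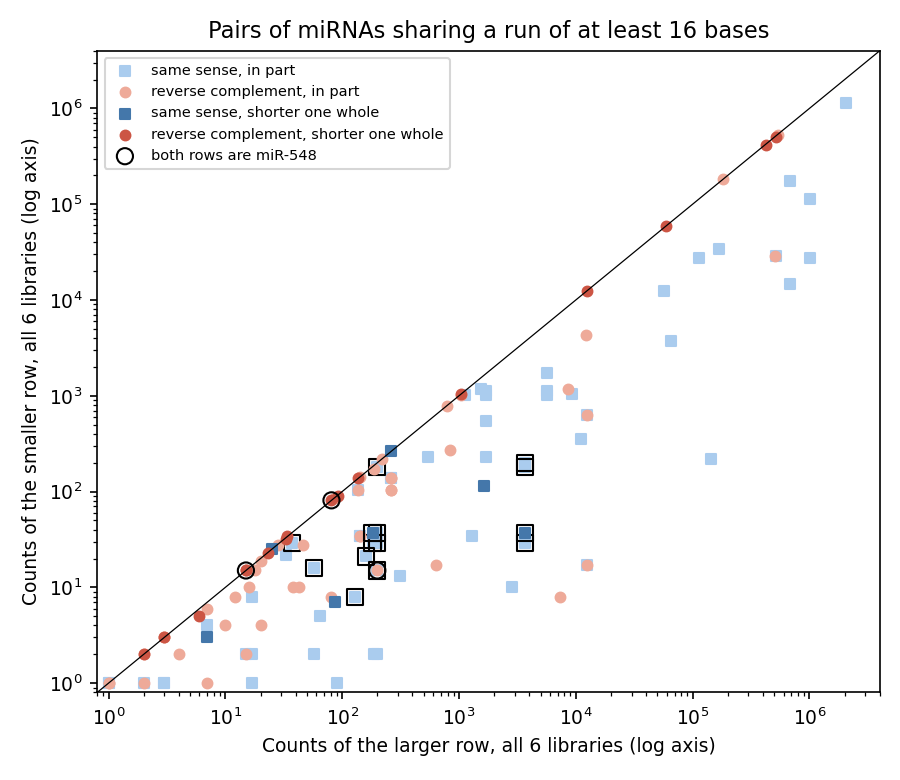
Total counts over 6 libraries of the larger (horizontal) and the smaller row (vertical) of each pair of rows that share a run of at least 16 bases, on log axes, for pairs in reverse complement (circles) and in the same sense (squares), with black outlines where both rows are miR-548 members. The 16 pairs with the whole shorter sequence in reverse complement lie at or near the diagonal, and both miR-548 pairs with equal counts lie on it.

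The members not called included several whose groups nearly or fully separated. miR-548u had 41, 18 and 23 counts in control and 35, 55 and 28 in RARαS77A libraries, with levels of 2.20 ± 1.04 and 4.79 ± 1.62 CPM (log2 fold change 1.13, SE 0.39, edgeR adjusted p = 0.0517). miR-548d-5p had 51, 57 and 45 counts in control and 27, 19 and 18 in RARαS77A libraries, with levels of 4.03 ± 0.131 and 2.62 ± 0.706 CPM (log2 fold change -0.62, SE 0.22, edgeR adjusted p = 0.0552). In both, the scaled groups did not overlap. Without control replicate 1, miR-548u was called higher (log2 fold change 1.54, edgeR adjusted p = 0.0157). Without RARαS77A replicate 1, miR-548d-5p was called lower (log2 fold change -0.92, edgeR adjusted p = 0.0140). The other fits with a library left out did not change these calls. The exact two-sided permutation test on log2 CPM gave p = 0.1 for each of the 8 members without overlap, the smallest p that 3 against 3 libraries allow.

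The other members that were not called had log2 fold changes on both sides of zero. miR-548ar-3p had a value of 0.48 (22, 38 and 16 counts in RARαS77A against 33, 33 and 19 in control libraries). miR-548a-3p had -0.31 (14, 11 and 14 against 18, 26 and 30 counts), miR-548e-3p -0.29 (17, 22 and 16 against 41, 36 and 27) and miR-548w -0.17 (19, 10 and 18 against 24, 30 and 28). miR-548j-5p had -0.50 (19, 28 and 16 against 46, 36 and 53) and miR-548t-3p -0.69 (9, 6 and 6 against 19, 26 and 9). miR-548t-3p passed the expression filter only through the control libraries, where it is high, so its direction is no support. miR-548l had 0.01 (6, 9 and 15 against 15, 17 and 14) and miR-548n -0.05 (12, 4 and 6 against 17, 8 and 10). The scaled groups of these 8 members overlapped.

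Sums over members with a shared seed are given as a description with no test. They cover only the 35 members with a RefSeq sequence, and the 16 others may share these seeds, so the sums may be incomplete. Tested members left out were miR-548a-3p, miR-548d-5p, miR-548e-3p and miR-548t-3p, with log2 fold changes of -0.31, -0.62, -0.29 and -0.69. Members with the seed AAAGUAA (miR-548ab, miR-548ak, miR-548aq-5p, miR-548b-5p, miR-548j-5p and miR-548w) summed to 6.83 ± 1.47 CPM in control and 5.42 ± 0.739 CPM in RARαS77A cells, a log2 ratio of -0.34 with overlapping groups. Those with AAAAACU (miR-548ah-3p, miR-548am-3p, miR-548aq-3p and miR-548j-3p) summed to 2.45 ± 0.288 and 5.68 ± 1.03 CPM, a log2 ratio of 1.21. Those with AAAACUG (miR-548ar-3p, miR-548bc and miR-548f-3p) summed to 3.21 ± 0.474 and 5.49 ± 0.759 CPM, a log2 ratio of 0.77. In AAAAACU and AAAACUG all RARαS77A libraries lay above all control libraries. The sums of AAAACCG (miR-548at-3p and miR-548ay-3p, 0.538 ± 0.418 and 0.331 ± 0.319 CPM) and AAGGUAA (miR-548ag and miR-548ba, 0.383 ± 0.152 and 0.161 ± 0.181 CPM) had log2 ratios of -0.70 and -1.25, with overlapping groups and a count of 0 in RARαS77A replicate 3. The seed GCAAAAG (miR-548f-5p and miR-548g-5p) consists only of rows that share their counts with a reverse complement, at a log2 ratio of 1.01. Those reverse complements are miR-548bc in AAAACUG and miR-548aq-3p in AAAAACU, so these seed sums hold some of the same counts. Among rows with a RefSeq sequence, the seed of miR-548o-3p, CAAAACU, was held by no other member but by miR-1323. AAGGUAA, the seed of miR-548ag and miR-548ba, was also held by miR-570-5p.

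Only the 35 members with a RefSeq sequence could be grouped by the inverted repeat. Of these, 12 held UACUUU and 12 held AAAGUA, searched as written in the mature sequence, with none holding both. The 16 members without a RefSeq sequence may hold either motif, so the groups may be incomplete. These 16 included 4 tested members, of which 0 were called higher and 0 lower. Their sum had a log2 ratio of -0.65, with all RARαS77A libraries below all control libraries. Each of these motifs, which are reverse complements, occurs in 1.27% of all mature names in RefSeq, the family included. Outside the family, AAAGUA occurs in 0.432% and UACUUU in 0.518% of the names. These groups were formed after the values had been seen and are a description. The members found to hold UACUUU included 5 tested ones, of which 4 were called higher, against 23.3% of all tested miRNAs. Their sum had a log2 ratio of 1.39, or 1.04 without the carriers of the core. The members found to hold AAAGUA included 6 tested ones, of which miR-548f-5p was called higher and miR-548k lower. Their sum had a log2 ratio of -0.41, or -0.042 without miR-548k, where the groups overlapped. The motif groups are not separate measurements. miR-548bc and miR-548aq-3p hold UACUUU, and miR-548f-5p and miR-548g-5p, with the same counts, hold AAAGUA. Scaling by total counts gave log2 ratios of 0.81 and 0.48 for UACUUU and -0.98 and -0.61 for AAAGUA.

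The 35 members that were not tested had totals of 1 to 38 counts over all libraries, with a median of 8. Their sum was 105, 114 and 83 counts in control and 49, 51 and 45 counts in RARαS77A libraries. The groups did not overlap, and the scaled sums were 7.92 ± 0.444 and 5.91 ± 0.432 CPM (SD, n = 3 each), a log2 ratio of -0.42, or -0.997 with total counts only. Only 4 of these members reached 10 counts in a library. miR-548d-3p had 18, 5 and 13 counts in control and 1, 1 and 0 in RARαS77A libraries. With a filter of 5 counts in 3 libraries, 2 members were called lower, miR-548k and miR-548d-3p, against 20.3% of all tested miRNAs. miR-548d-3p passed that filter only through the control libraries, where it is high, so its direction there was fixed by the filter and that call is no support. With no filter, miR-548d-3p was also called lower (log2 fold change -3.59, edgeR adjusted p = 0.000355), against 10.2% of all rows. miR-548b-5p had 10, 7 and 3 and then 5, 5 and 0 counts, and miR-548ay-3p 4, 10 and 1 and then 4, 3 and 0 counts. The fourth was miR-548av-3p, described above. Among members with a RefSeq sequence, the untested ones that alone carried their seed had totals of 1 to 37 counts. They were miR-548ac, miR-548ad-3p, miR-548al, miR-548at-5p, miR-548av-3p, miR-548b-3p, miR-548c-3p, miR-548q, miR-548s and miR-548t-5p. Members without a RefSeq sequence may share these seeds. Counts of 0 in all RARαS77A libraries were found in 6 members and in all control libraries in 2, and at this depth none of these is distinguishable from a low level.

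Relatives of the family with other numbers, miR-570, miR-579 and miR-603, had 5 rows. The single tested one, miR-579-5p, had 24, 19 and 27 counts in control and 26, 35 and 15 in RARαS77A libraries and was not called (log2 fold change 0.72, edgeR adjusted p = 0.156). A list of other miRNAs that derive from transposable elements had 28 rows, of which 22 were tested, 4 were called higher and 5 lower, near the background given above. The higher ones were miR-151a-3p, miR-340-3p, miR-576-3p and miR-625-3p, and the lower ones miR-374a-5p, miR-374b-3p, miR-374b-5p, miR-374c-3p and miR-584-3p. miR-374b-5p and miR-374c-3p are reverse complements with totals of 12540 and 12537 counts, and are effectively a single measurement.

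The scaling changed how many members were called. With total counts only, the median log2 fold change was -0.51 over all tested miRNAs and -0.58 over the members. Under it, 2 members were called higher and 5 lower, while 10.1% of all tested miRNAs were called higher and 42.1% lower. Of these 5, miR-548t-3p passed the expression filter only through the control libraries, where it is high, so its call is no support. With upper quartile scaling, 6 members were higher and 0 lower, against 27.9% and 14.6% of all tested miRNAs, and 1 member was lower at an unadjusted edgeR p under 0.05. With the replicate number as a block, 3 were higher and 0 lower, against 21.1% and 18.6%, and 2 were lower at an unadjusted edgeR p under 0.05. With no filter, 4 were higher and 3 lower, against 7.40% and 10.2% of all 1582 rows. DESeq2 called 3 members higher, against 21.5% of all tested miRNAs.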

How the data were processed

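The authors deposited 1 table with read counts of 1582 miRNAs in 6 small RNA libraries (3 per group) and the same values as TPM. As deposited, the count columns hold unnormalized whole numbers, and the TPM columns hold the count relative to the library's total, without a length term. The TPM columns were not used. Bowtie is named in the submitters' processing notes. Its version, the genome build, the strand setting and the treatment of multiply matching reads are not given in the sources.

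Counts were tested with edgeR 4.0.16 in R 4.3.3 (TMM, filterByExpr with a minimum count of 10, glmQLFit and glmQLFTest, no block), with Benjamini-Hochberg adjustment over all 506 tested miRNAs. Dividing the absolute log2 fold change by the root of F gave the SE. Alternatives used DESeq2 1.42.0, limma 3.58.1 (voom), other scalings and filters, a replicate block and each library left out. Sums, seeds and detection were described without a test. Single members were also compared with an exact permutation test (scipy 1.17.1). Every tested member was named, with members of equal counts. Untested members were named if they had 10 or more counts in a library or a seed that no other member with a RefSeq sequence carried. Members and lists were chosen with earlier results of these data known. On simulated counts of 506 miRNAs with 200 changed, edgeR recovered 88% of those changed by 1 on the log2 scale and 94% of those changed by 2, and 2.67% of its calls were unchanged miRNAs. The simulated counts had the same dispersion in every miRNA and as many rises as falls, so these rates need not hold for the calls above.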

Additional observations from a re-analysis of the deposited data

How the results depend on the processing

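Beside the TMM-scaled edgeR test, with 5 members called higher and 1 lower, the count of higher members was 2 with total counts only, 3 with DESeq2, 3 with the replicate block and 3 to 5 with each library left out. The count of lower members was 5 with total counts only, 3 with no filter, 2 with a filter of 5 counts in 3 libraries, 0 with upper quartile scaling, 0 with the replicate block and 1 to 2 with each library left out. miR-548d-3p was among the lower members with no filter, with the filter of 5 counts and without control replicate 2. miR-548t-3p was among them with total counts only. In the fits with a filter, both passed it only through the control libraries, where they are high, so those calls are no support. Over the whole table, 101 to 125 of the 517 to 532 tested miRNAs were called higher with each library left out, and 92 to 116 lower. The cause of the changes in the number of calls was not tested. miR-548o-3p and miR-548ah-3p kept their calls in all 15 alternatives, with log2 fold changes of 0.86 to 1.67 and 0.86 to 1.68. No called value changed sign. Over the tested members, 206 values stayed on their side of the limit, 21 lost a call and 10 gained it. Gains were made by miR-548u, miR-548d-5p, miR-548e-3p, miR-548j-5p and miR-548t-3p. The log2 ratio of the summed family moved from 0.75 to 0.17 with total counts only and to -0.026 without the most abundant member, and was 0.62 to 0.91 with each library left out. With total counts only, the seed sums had log2 ratios of -0.91 (AAAGUAA), 0.63 (AAAAACU), 0.20 (AAAACUG) and 0.43 (GCAAAAG). With GCAAAAG no value was computed with equal rows counted once. Detection at 10 counts left 20 of 51 members. Of the 4 sets with equal counts, 1 remained when a mean count of 10 was required and differences of up to 5% were allowed. The replicate numbers did not pair the libraries: same-numbered libraries had correlations of their deviations of 0.0258, 0.105 and 0.0118, and 3 of 6 libraries correlated best with their own number. Counts under about 10 per library limit what can be said of the 35 members not tested.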
